A study of Schizosaccharomyces pombe with 4 samples.

Results

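The genes examined here are nuclear genes of mitochondrial respiration in the fission yeast *Schizosaccharomyces pombe*. They were chosen by a rule on names: protein-coding genes on chromosomes I, II and III whose symbol begins with cox, qcr, atp, cyt, cyc, sdh or rip and a number. This gave 54 genes of the 5129 protein-coding genes and 11620 transcripts in the table, and the rule uses no measured value. They comprise 4 genes of complex II, 9 of complex III, the gene of cytochrome c, 8 of complex IV, 13 of the ATP synthase, 18 of assembly factors, and *cox24*, which RefSeq annotates as mS38, a protein of the mitochondrial ribosome. The name rule left out *tim11*, a further ATP synthase subunit.

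Total RNA was sequenced from cells lacking *rrp6* (*rrp6*Δ) and from wild-type (WT) cells. There were 2 libraries per strain, which the study's methods call biological duplicates. Rrp6 is a nuclear 3′ to 5′ exonuclease of the RNA exosome, and its loss lets cryptic unstable transcripts (CUTs) accumulate. The libraries were stranded, rRNA was depleted and an RNA spike-in was added. The study's methods name YES and EMMG as media for its strains, without saying in which of them these cultures grew.

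In oxidative phosphorylation, complex II takes electrons from succinate, complex III passes them to cytochrome c, and complex IV hands them to oxygen. The proton gradient built on the way drives the ATP synthase. *S. pombe* has no proton-pumping complex I. The core of complex IV, cytochrome b of complex III and part of the membrane sector of the ATP synthase are encoded by the mitochondrial genome, so the enzymes are assembled from the products of both genomes. The CCAAT-binding Php complex regulates respiratory genes in this yeast, and in low iron its Php4 subunit represses genes of iron-using proteins.

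Depth was 75295117 and 64913330 reads over all transcripts in the *rrp6*Δ libraries, against 68813840 and 82419985 in the WT libraries. The least covered of the 54 genes had 99 reads in a library. As a check of the labels, *rrp6* itself had 7.38 and 8 normalized reads in *rrp6*Δ, against 2352 and 2842 in WT. Of the mating type markers, *mfm1*, *mfm2*, *mfm3* and *mam2* of M cells and *map1*, *map2* and *map3* of P cells were all detected in both strains. All 4 M cell markers passed the test as higher in *rrp6*Δ, with a median log2 fold change of 1.12 (2 of them with TMM factors from protein-coding genes), as did *map2* of the P cell markers. With those TMM factors all 3 P cell markers passed, *map2* as higher and *map1* and *map3* as lower (-0.49 and -0.37). The part of these markers in the results below was not tested.

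Sequences of a few genes bear on what can be read from these genes. The first set shows CCAAT boxes, the sequence that the Php complex binds, in complex II and cytochrome c, the parts of the respiratory chain with no gene called. CCAAT was searched on both strands of the 250 bases before the annotated 5′ end of each gene in the reference ASM294v3. Capitals mark the box nearest to the gene, printed on the strand of the gene, so that ATTGG is a box on the opposite strand.
*sdh1*: atgtgggttaagCCAATaatgtaagttaa
*sdh2*: atttttctgccgCCAATaaaattgattct
*sdh3*: tcaaaatataaaATTGGtcggtttctata
*cyc1*: agagctcatgaaCCAATgaaataagggcg
These windows lie on chromosome I from 3798608 to 3798636 on the minus strand (*sdh1*), chromosome I from 1895352 to 1895380 on the plus strand (*sdh2*), chromosome III from 136740 to 136768 on the minus strand (*sdh3*) and chromosome III from 1714545 to 1714573 on the plus strand (*cyc1*). The last base of the box lay 94, 68, 56 and 99 nt before the start of *sdh1*, *sdh2*, *sdh3* and *cyc1*. Over all 54 genes, 23 (42.6%) held a CCAAT in the window, beside 35.0% of the 5118 nuclear protein-coding genes. By complex it was found in 3 of 4 genes of complex II, 7 of 9 of complex III, 2 of 8 of complex IV, 6 of 13 of the ATP synthase and 3 of 18 assembly factors. Complex III, where the box was also common, held genes called in both directions below. The 23 genes with the box had a median log2 fold change of 0.21, and the 31 without it one of 0.26. With the deposited factors, 8 of the 23 and 14 of the 31 were called higher, beside 46.7% of protein-coding genes. A link of the box to the change was not tested. A match is a description of the letters and not a shown binding site.

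The second set is the pair *cox1101* and *cox1102*, whose separate values are uncertain. Each encodes a tandem protein of the ribosome assembly factor Rsm22 and Cox11, the copper chaperone of complex IV. Over their 2262 coding bases they differed at 3 positions (99.9% identical), all within the stretch from base 1632 to base 1661, where capitals mark the differences.
cox1101: ttacaattgcatctctggtaccaggaaATA
cox1102: ttacaattgcatctctggtaccaggaaTAT
The stretch of *cox1101* lies on chromosome I from 1268506 to 1268535 on the minus strand and that of *cox1102* on chromosome I from 4908609 to 4908638 on the plus strand. Of all windows of 50 coding bases, 97.7% were identical between the genes. *cox1101* had 86.1 and 110 normalized reads in *rrp6*Δ, against 99.9 and 101 in WT. *cox1102* had 112 and 130 in *rrp6*Δ, against 87.5 and 106 in WT. Most reads of these genes cannot be assigned to either copy by sequence, and neither gene passed the test. For its densities of these strains the paper names uniquely mapped reads, which would leave out most reads of both copies. Whether this lowered the values here was not tested. With that limit, both genes had the lowest values of the 54 per length, at 0.035 to 0.054 normalized reads per nt of the annotated row in every library. Levels per nt below divide by the same row length unless coding length is named.

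Did the transcripts of the respiratory genes change when Rrp6 was absent? With the spike-in factors of the deposited table, 22 of the 54 genes were higher in *rrp6*Δ, 1 was lower, and 31 did not pass (limma, adjusted p under 0.05 over 11227 transcripts). The share called higher, 40.7%, stood beside 46.7% of the 5073 protein-coding genes tested, and the share called lower, 1.85%, beside 7.08%. No gene changed over 2-fold by limma, at an unadjusted p under 0.05 or by edgeR or DESeq2 with the same factors, where 6.39% of protein-coding genes rose and 0.591% fell by that much. The 95% interval of the change lay within 2-fold for 51 of the 54 genes, the exceptions being *atp10*, *cox16* and *cox8*.

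The median log2 fold change was 0.21 over the 54 genes, 0.26 over protein-coding genes and 0.66 over all transcripts. In the 4 pairs of one *rrp6*Δ and one WT library the median of the 54 genes was 0.31, 0.13, 0.31 and 0.17 (SD 0.093). Both *rrp6*Δ libraries lay above both WT libraries for 37 genes and below them for 7, beside 65.3% and 12% of protein-coding genes, and the libraries overlapped for the other 10. Of the 54 genes, 24 were above the protein-coding median and 30 below it. The count of genes called higher depended on single libraries. The median log2 fold change of the 54 genes was 0.16 without WT library 1 and 0.31 without WT library 2. It was 0.22 without *rrp6*Δ library 1 and 0.22 without *rrp6*Δ library 2. A strain left with 1 library takes its spread from the other strain. Replicates differed more in WT, with a chi-square per degree of freedom of 126, against 28.5 in *rrp6*Δ. A call lost in such a fit can thus come without a smaller change. Of the 22 genes that rose, 7 were called in all 4 fits that leave out 1 library: *cox7*, *cox8*, *cox6*, *cox16*, *atp14*, *atp5* and *qcr7*.

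**Figure D1:**
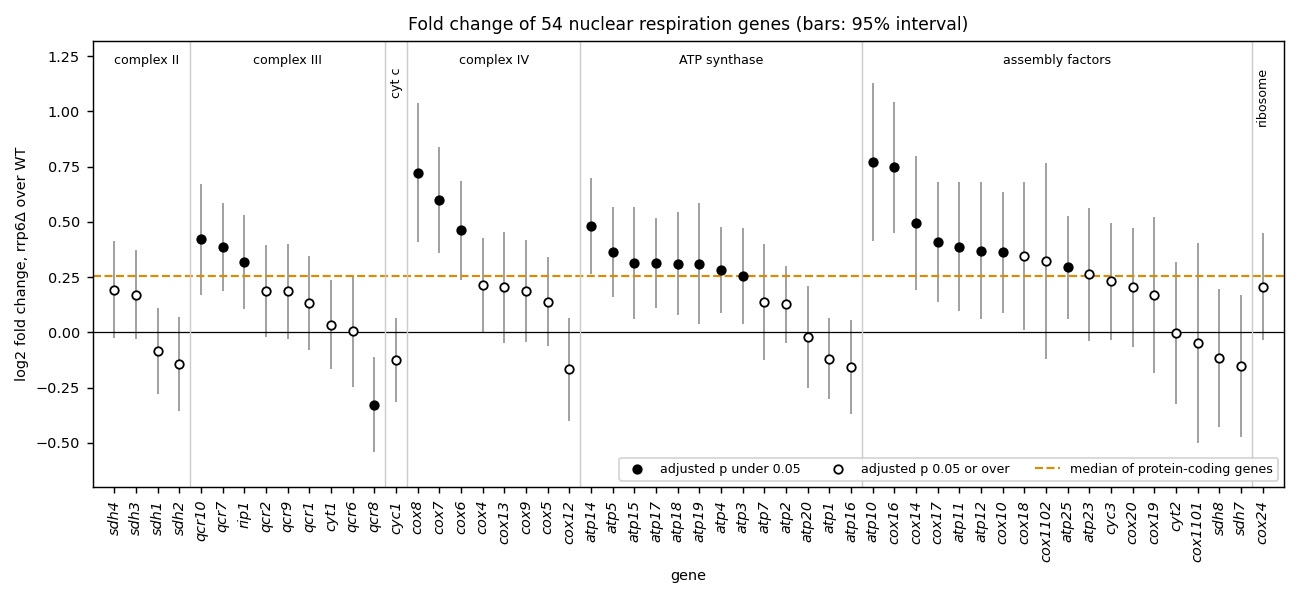
Log2 fold change of *rrp6*Δ over WT for each of the 54 genes, grouped by complex, with the 95% interval from limma on the deposited factors. Filled points passed adjusted p 0.05, and the dashed line is the median of protein-coding genes (0.26). *cox8*, *cox7*, *cox16* and *atp10* stand highest and *qcr8* is the only gene called lower.

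The direction of the group rested on how libraries were scaled. With library totals, 17 of the 54 genes were higher and 5 lower, beside 38.3% and 9.60% of protein-coding genes. With TMM factors from protein-coding genes, which set the median protein-coding gene near no change, 5 were higher and 12 lower, beside 23.7% and 22.5%. Quantile normalization gave 7 higher and 11 lower, beside 15.8% and 31.1%. With TMM factors over all transcripts, 0 were higher and 37 lower, beside 9.09% and 59.2%. The size factors of DESeq2 gave 0 higher and 46 lower, beside 6.35% and 71.1%. The median of the 54 genes minus that of protein-coding genes was between -0.05 and 0.03 under each of these 6 scalings. There were 5 genes called higher both with the deposited factors and with TMM factors from protein-coding genes: *cox16*, *cox7*, *cox8*, *atp14* and *atp10*. Only *qcr8* was called lower under all 6. Unless another scaling is named, values below are on the deposited factors, and changes are best read against the protein-coding median of 0.26.

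**Figure D2:**
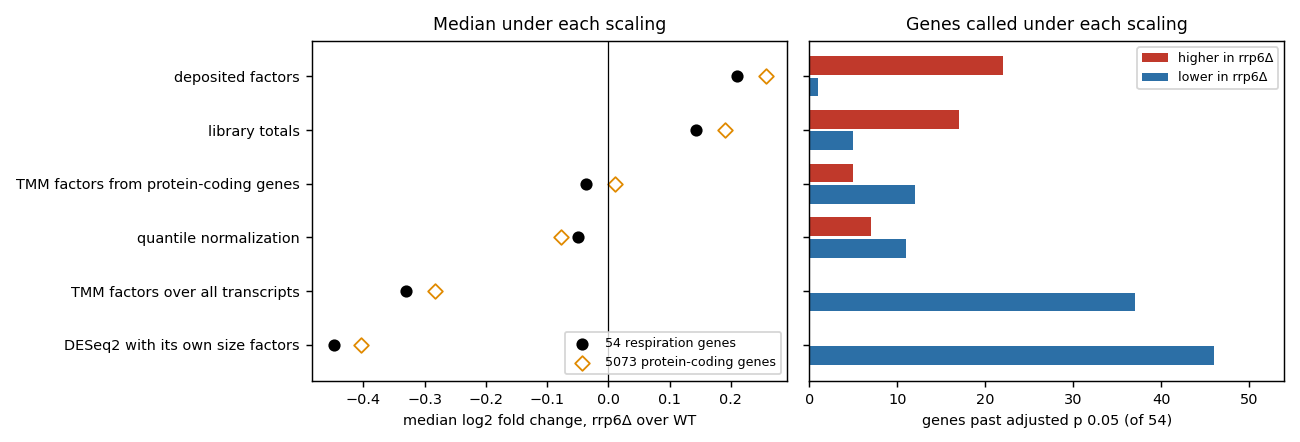
Left, median log2 fold change of *rrp6*Δ over WT for the 54 respiration genes (filled circles) and 5073 protein-coding genes (open diamonds) under 6 scalings. Right, number of the 54 genes called higher or lower in *rrp6*Δ at adjusted p 0.05, from 22 higher and 1 lower with the deposited factors to 0 higher and 46 lower with the size factors of DESeq2.

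Complex II, succinate dehydrogenase, links the citric acid cycle to the respiratory chain. Neither direction had a call among its 4 genes by limma, at an unadjusted p under 0.05, or by edgeR or DESeq2 with the deposited factors. Over protein-coding genes 46.7% were called higher and 7.08% lower. Beside that share, a count of 0 lower in groups as small as these complexes says little about them. *sdh4*, a membrane anchor subunit that RefSeq also lists in the TIM22 import complex as Tim18, had the highest log2 fold change, with 4589 and 4458 normalized reads in *rrp6*Δ, against 4101 and 3814 in WT (log2 fold change 0.19 ± 0.11 SE). *sdh2*, the iron-sulfur subunit, had the lowest, with 7409 and 8417 normalized reads in *rrp6*Δ, against 8817 and 8616 in WT (-0.14 ± 0.10). For neither gene did the libraries of the strains overlap, but the intervals of both changes included 0. The catalytic flavoprotein gene *sdh1* had 8.47 and 9.44 normalized reads per nt in *rrp6*Δ and 9.53 and 9.46 in WT, the highest WT level of the complex by row length. By coding length the highest in WT was *sdh3*, a membrane anchor subunit (15.1 reads per coding nt).

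Complex III, the cytochrome bc1 complex, had the only gene of the 54 that fell, beside 3 that rose and 5 that did not pass. Over protein-coding genes 46.7% were called higher and 7.08% lower. *qcr8*, a small subunit near the ubiquinone site, lies on chromosome I from 4767042 to 4767986 on the plus strand. It had 7108 and 6886 normalized reads in *rrp6*Δ, against 8220 and 9366 in WT. Both *rrp6*Δ libraries were below both WT libraries, a 0.797-fold level (log2 fold change -0.33 ± 0.10 SE, adjusted p = 0.0087). Over its longest coding part the change was -0.40 (adjusted p = 0.0026). The call was lost without *rrp6*Δ library 2 (log2 fold change -0.30, adjusted p = 0.073) and without the trend of limma (adjusted p = 0.093).

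At the other end, *qcr7*, another small subunit, had 13185 and 14162 normalized reads in *rrp6*Δ, against 10302 and 10590 in WT (0.39, adjusted p = 0.0015). *qcr10*, a peripheral subunit, had 1971 and 2210 in *rrp6*Δ, against 1528 and 1591 in WT (0.42, adjusted p = 0.0046). The Rieske iron-sulfur protein gene *rip1* also rose, by 0.32 (adjusted p = 0.0093). Without *rrp6*Δ library 2 neither *qcr10* (0.34, adjusted p = 0.12) nor *rip1* (0.31, adjusted p = 0.072) passed, and *rip1* did not pass without *rrp6*Δ library 1 either (adjusted p = 0.059). Each of these genes had separated libraries. In contrast, *cyt1*, which encodes the haem-bearing cytochrome c1, changed by 0.04 and *qcr6* by 0.01, and the core protein genes *qcr1* and *qcr2* by 0.14 and 0.19, none of which passed. Hence subunits of one complex, needed together in the finished enzyme, spanned log2 fold changes from -0.33 to 0.42.

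Per length, *qcr8* had the highest level of complex III in WT, 8.70 and 9.91 normalized reads per nt, and had 7.52 and 7.29 in *rrp6*Δ. In *rrp6*Δ the highest was *qcr7*, with 11.2 and 12.1 normalized reads per nt, against 8.77 and 9.02 in WT. By row length *qcr10* was the lowest, with 3.22 and 3.61 in *rrp6*Δ and 2.49 and 2.59 in WT, whereas by coding length it was *qcr2* in both strains (4.39 reads per coding nt in WT). The WT levels of *qcr8* and *qcr7* overlapped, so their order in WT was not beyond the spread.

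Cytochrome c, the mobile carrier between complexes III and IV, is encoded by *cyc1*. It had 16023 and 15872 normalized reads in *rrp6*Δ, against 17907 and 16893 in WT (log2 fold change -0.13 ± 0.09 SE, adjusted p = 0.22). The *rrp6*Δ libraries were lower, but the 95% interval, from -0.32 to 0.07, included 0. At 14.1 and 13.9 normalized reads per nt in *rrp6*Δ and 15.7 and 14.8 in WT, it was second to *atp2* among the 54 genes in both strains. By coding length it was first, at 48.3 in *rrp6*Δ and 52.7 in WT, and *atp2* second, at 43.0 in *rrp6*Δ and 39.4 in WT.

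Complex IV, cytochrome c oxidase, held the largest changes of any subunit. Of its 8 nuclear genes 3 rose and 5 did not pass, beside 46.7% of protein-coding genes called higher and 7.08% lower. No gene was called lower by limma, at an unadjusted p under 0.05, or by edgeR or DESeq2 with the deposited factors. *cox8*, which encodes a small membrane subunit, lies on chromosome I from 3042749 to 3043380 on the minus strand. It had 619 and 556 normalized reads in *rrp6*Δ, against 347 and 363 in WT. Its *rrp6*Δ level was 1.65-fold that of WT (log2 fold change 0.72 ± 0.15 SE, adjusted p = 0.00036).

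*cox7*, another small membrane subunit, lies on chromosome II from 1715140 to 1715436 on the minus strand and had 2605 and 2524 normalized reads in *rrp6*Δ, against 1672 and 1714 in WT. This was a 1.51-fold level (0.60 ± 0.11 SE, adjusted p = 0.00017). The libraries of each strain lay close together for both genes, and no *rrp6*Δ library came near a WT library. *cox6*, an outer subunit on the matrix side, had 6684 and 5793 normalized reads in *rrp6*Δ, against 4569 and 4470 in WT (0.46, adjusted p = 0.0010).

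The subunit with the lowest change was *cox12*, on the intermembrane side, with 3091 and 2955 normalized reads in *rrp6*Δ, against 3223 and 3573 in WT (-0.17, adjusted p = 0.18). Summed over its coding parts *cox12* passed as lower (-0.27, adjusted p = 0.034), and over its longest coding part it did not (-0.27, adjusted p = 0.054). *cox4*, *cox5*, *cox9* and *cox13* had log2 fold changes of 0.14 to 0.21 and did not pass. Per length the range in the complex was wide. *cox8* was lowest, with 0.979 and 0.880 normalized reads per nt in *rrp6*Δ and 0.550 and 0.574 in WT, and by row length *cox5* was the highest in WT, with 8.48 and 8.60 in *rrp6*Δ and 7.65 and 7.85 in WT. By coding length *cox9* was the highest in both strains (17.6 in *rrp6*Δ and 15.5 in WT, against 14.8 in *rrp6*Δ and 13.4 in WT for *cox5*). *cox7* had 8.77 and 8.50 in *rrp6*Δ, which did not differ from *cox5* there beyond the spread, against 5.63 and 5.77 in WT.

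The ATP synthase had 8 genes that rose and 5 that did not pass, beside 46.7% of protein-coding genes called higher and 7.08% lower. Of its 13 genes 0 were lower by limma, at an unadjusted p under 0.05, or by edgeR or DESeq2 with the deposited factors. *atp14*, which encodes subunit H, had 5225 and 5405 normalized reads in *rrp6*Δ, against 3690 and 3927 in WT (0.48 ± 0.10 SE, adjusted p = 0.00055). *atp5*, the stalk subunit that holds the catalytic head in place, had 8992 and 9083 in *rrp6*Δ, against 6857 and 7202 in WT (0.36, adjusted p = 0.0030). *atp17*, subunit F of the membrane sector, had 8962 and 9165 in *rrp6*Δ, against 7081 and 7512 in WT (0.31, adjusted p = 0.0083). The remaining 5 that rose, *atp3*, *atp4*, *atp15*, *atp18* and *atp19*, had log2 fold changes of 0.26 to 0.31, close to the protein-coding median. *atp17* was no longer called without *rrp6*Δ library 2 (0.30, adjusted p = 0.074). Without *rrp6*Δ library 2 *atp3*, *atp15*, *atp18* and *atp19* were not called either, and without WT library 1 the changes of *atp15* and *atp19* were 0.17 and 0.10.

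The subunits of the catalytic head, *atp1* and *atp2*, were not among the genes that rose. *atp1*, the alpha subunit, had 27157 and 28189 normalized reads in *rrp6*Δ, against 30371 and 29716 in WT (-0.12, adjusted p = 0.23). *atp2*, the beta subunit that carries the catalytic sites, had 67180 and 68566 in *rrp6*Δ, against 60714 and 63506 in WT (0.13, adjusted p = 0.17). *atp16*, the delta subunit of the central stalk, had the lowest change, with 6380 and 6154 in *rrp6*Δ, against 6676 and 7324 in WT (-0.16, adjusted p = 0.17). For none of these genes did the change pass.

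By row length *atp2* was the most abundant of the 54 genes, with 35.2 and 36.0 normalized reads per nt in *rrp6*Δ and 31.9 and 33.3 in WT, and alone made up 19.1% and 19.2% of the normalized reads of the 54 genes in *rrp6*Δ and 19.0% and 19.1% in WT. *atp7*, a stator subunit, was the lowest of the ATP synthase, with 3.22 and 3.26 in *rrp6*Δ and 2.63 and 3.30 in WT. The level of *atp1* also depends on the length used: its annotated row is 5237 nt long with 1611 coding bases, and its rank among the 54 genes in WT was 18 by row length and 7 by coding length. Together the 54 genes took 1.02% and 0.983% of the reads of nuclear protein-coding genes in *rrp6*Δ, against 0.922% and 0.912% in WT.

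**Figure D3:**
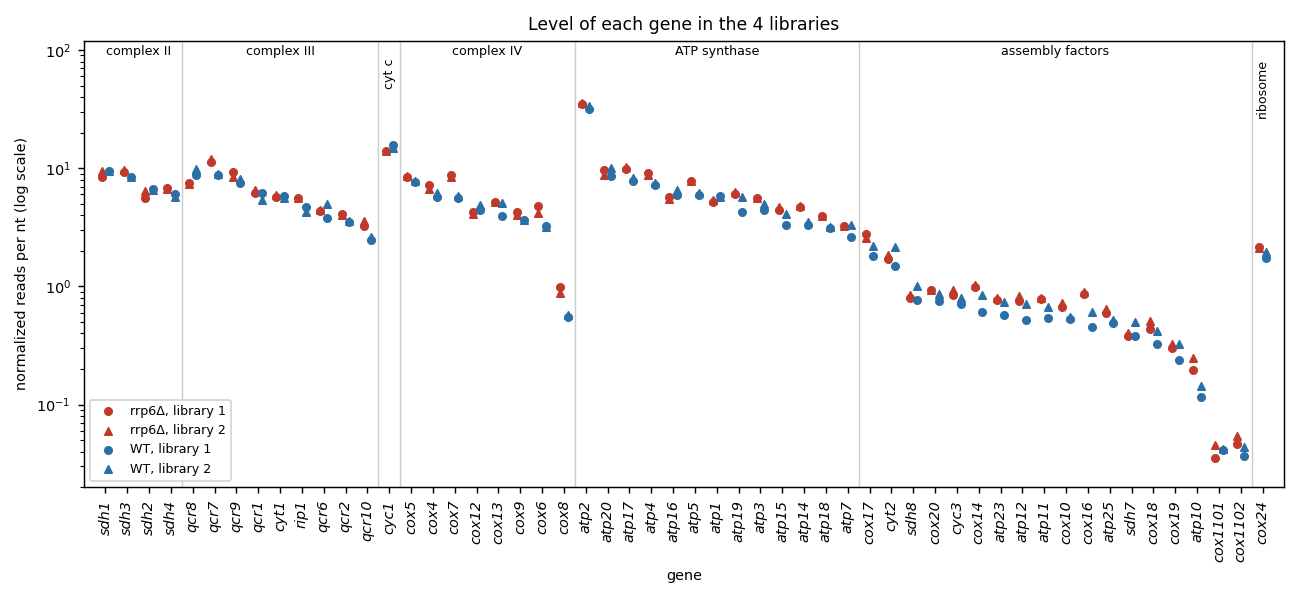
Normalized reads per nt of the annotated gene row, on a log axis, for each of the 54 genes in the *rrp6*Δ libraries (red, left) and the WT libraries (blue, right). Subunit genes of the complexes lie mostly between 3 and 12 reads per nt, *atp2* stands above them, and assembly factors lie lower. At the bottom are *cox1101* and *cox1102*, near-identical copies whose levels are uncertain.

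Assembly factors build the complexes and are not part of the finished enzymes. Their median level was 0.785 normalized reads per nt in *rrp6*Δ and 0.574 in WT, below the medians of complex IV (4.80 and 4.59), complex III (5.84 and 5.69), the ATP synthase (5.59 and 5.74) and complex II (7.83 and 7.53). Of the 18 genes 8 rose and 10 did not pass, beside 46.7% of protein-coding genes called higher and 7.08% lower. The count of genes called lower was 0 by limma, at an unadjusted p under 0.05, and by edgeR or DESeq2 with the deposited factors. By row length the highest level was that of *cox17*, the copper chaperone of complex IV, with 2.76 and 2.58 normalized reads per nt in *rrp6*Δ and 1.82 and 2.21 in WT. By coding length it was that of *cox14* (9.27 in *rrp6*Δ and 6.67 in WT, against 8.56 in *rrp6*Δ and 6.47 in WT for *cox17*).

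Assembly factors also held the genes with the highest changes of all. *cox16*, an assembly factor of complex IV, lies on chromosome I from 3207482 to 3209724 on the plus strand and had 1935 and 2015 normalized reads in *rrp6*Δ, against 1011 and 1369 in WT (1.68-fold, log2 fold change 0.75 ± 0.14 SE, adjusted p = 0.00016). *atp10*, an assembly factor of the ATP synthase, lies on chromosome I from 781347 to 783634 on the minus strand and had 451 and 567 in *rrp6*Δ, against 267 and 329 in WT (1.71-fold, 0.77 ± 0.17 SE, adjusted p = 0.00064). *cox14*, which couples the making of Cox1 to assembly in budding yeast, had 1908 and 1986 in *rrp6*Δ, against 1172 and 1629 in WT (0.49, adjusted p = 0.0054). Both *rrp6*Δ libraries were above both WT libraries for each of these genes. Without *rrp6*Δ library 2 neither *atp10* (0.61, adjusted p = 0.067) nor *cox14* (0.47, adjusted p = 0.064) was called. The change of *cox14* was 0.26 without WT library 1 and 0.73 without WT library 2.

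The other assembly factors that rose were *cox17*, *cox10* (which acts in the making of haem A), *atp11* and *atp12* (chaperones of the catalytic head) and *atp25*, by 0.30 to 0.41. None of these was called without *rrp6*Δ library 1 or without *rrp6*Δ library 2, and without WT library 1 the changes of *atp12*, *atp11* and *cox17* were 0.16, 0.23 and 0.27. The lowest change was that of *sdh7*, a factor for complex II, with 614 and 645 normalized reads in *rrp6*Δ, against 610 and 803 in WT (-0.15, adjusted p = 0.37). Its libraries overlapped. *cyt2* and *cyc3*, the lyases that attach haem to cytochrome c1 and cytochrome c, had changes of 0.00 and 0.23 and did not pass.

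How much of these changes lay in the coding sequence? A gene row counts every read on its strand between its annotated ends, so a noncoding transcript of the same strand inside it is counted too. The longest coding part of each gene was therefore tested in place of the row, an alternative added after the data were seen. It gave 18 of 54 genes higher and 1 lower, beside 40.7% and 7.82% of the 5052 protein-coding genes tested that way. For 45 of the 54 genes the log2 fold change moved by less than 0.1.

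The greatest shifts were those of *atp10* and *cox16*. Over its longest coding part, 342 nt, *atp10* had 139 and 155 normalized reads in *rrp6*Δ, against 99.9 and 128 in WT, a log2 fold change of 0.37 ± 0.20 SE that did not pass (adjusted p = 0.11), in place of 0.77 for the row. The sum over its coding parts gave 0.30 (adjusted p = 0.13). Over its longest coding part, 231 nt, *cox16* had 1028 and 1030 in *rrp6*Δ, against 688 and 917 in WT, a change of 0.37 ± 0.14 SE (adjusted p = 0.032), in place of 0.75. Hence both genes sat nearer the protein-coding median in their coding sequence. *cox7*, at 0.61 (adjusted p = 0.00019), and *cox8*, at 0.60 (adjusted p = 0.0022), had the highest changes of the 54 genes by this count.

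**Figure D4:**
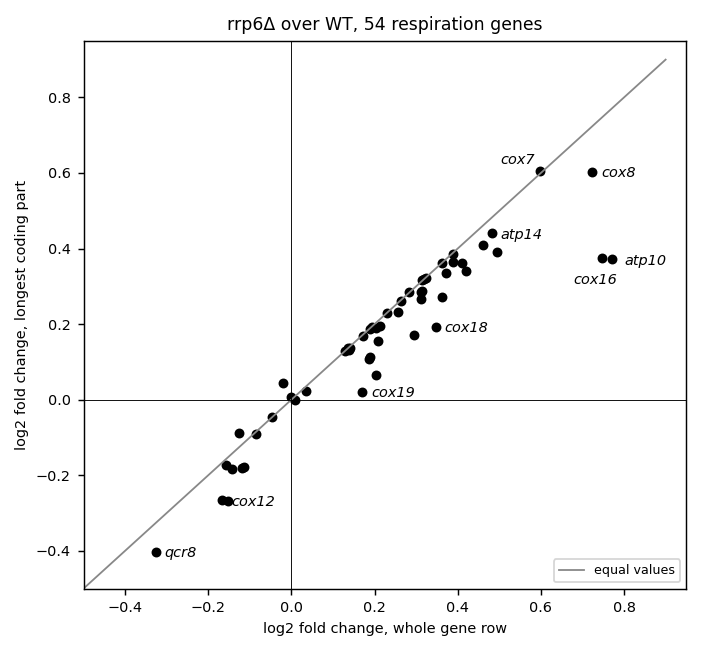
Log2 fold change of *rrp6*Δ over WT from the longest coding part of a gene (vertical axis) against that from its whole row (horizontal axis) for the 54 genes, with a line of equal values. *atp10* falls to 0.37 from 0.77 for the row and *cox16* to 0.37 from 0.75, while *cox7* stays on the line.

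Noncoding transcripts of the same table overlap both rows. CUT767, 467 nt long, shares 289 nt with the 5′ part of *atp10* on the same strand, before its coding sequence. It had 128 and 165 normalized reads in *rrp6*Δ, against 17.7 and 22.6 in WT (log2 fold change 2.82). XUT1483, of a class of transcripts that the cytoplasmic exonuclease Exo2 degrades, is 436 nt long, lies wholly within the 3′ part of the *cox16* row on its strand, and had 194 and 188 in *rrp6*Δ, against 40.7 and 54.6 in WT (2.00). This was a smaller difference in reads than that of the *cox16* row. CUTs were defined on these libraries by their rise in *rrp6*Δ, so the direction of CUT767 is not an independent result. In *atp25*, which has 1 coding part, the row holds CUT1973 on its strand, which had 61.5 and 55 normalized reads in *rrp6*Δ, against 18.6 and 19.7 in WT. All reads of the row outside the coding part were more than CUT1973 holds, and numbered 309 and 327 in *rrp6*Δ, against 48.6 and 58.3 in WT. Over the coding part of *atp25* the log2 fold change was 0.17 (adjusted p = 0.16), in place of 0.30. In all, 4 of the 54 genes overlapped a CUT or XUT on the same strand, the fourth being *atp1* with XUT1614. Any transcript of the same strand overlapped 13 of the 54. Annotated ncRNAs did so at the 3′ ends of *qcr8* (64 nt) and *cox5* (66 nt) and at the 5′ end of *sdh3* (62 nt). The one at *qcr8*, rex3-antisense-1, had 1534 and 1722 normalized reads in *rrp6*Δ, against 211 and 232 in WT (2.87), while the *qcr8* row fell.

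**Figure D5:**
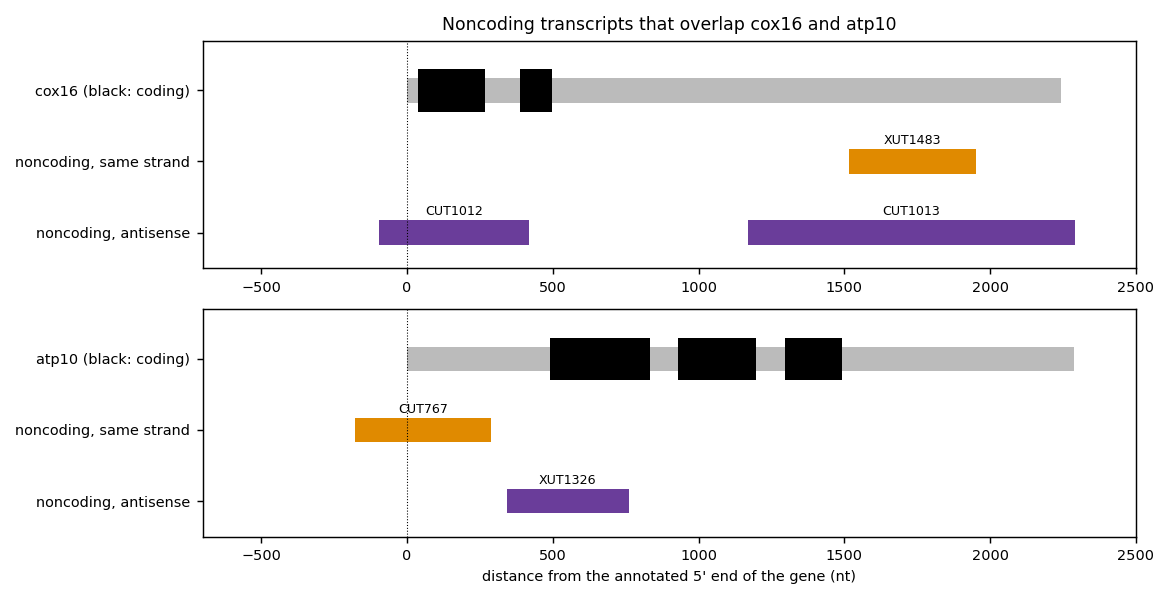
Maps of *cox16* (top) and *atp10* (bottom) by distance in nt from the annotated 5′ end, with the gene row in grey, coding parts in black, noncoding transcripts of the same strand in orange and antisense ones in purple. XUT1483 lies downstream of the coding parts of *cox16*, and CUT767 covers the 5′ part of the *atp10* row up to 289 nt, upstream of its coding parts.

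On the opposite strand, 6 of the 54 genes overlapped a CUT, beside 30.2% of nuclear protein-coding genes, and 4 did so over at least 50% of the CUT, beside 23.9%. Any annotated noncoding transcript lay antisense to 17 of the 54 genes (31.5%), beside 50.6%. The 6 genes were *cox16*, *cox19*, *cox20*, *cox24*, *atp18* and *qcr1*, the last by 9 nt. Antisense to *cox16*, CUT1013 had 485 and 513 normalized reads in *rrp6*Δ, against 53.9 and 73.6 in WT, and CUT1012, across the start of its coding sequence, had 69.7 and 100 in *rrp6*Δ, against 22.1 and 28.4 in WT. Antisense to *atp18*, CUT794 had 98.4 and 121 in *rrp6*Δ, against 3.54 and 6.56 in WT, the greatest ratio of the 6 loci.

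None of the 6 sense genes at these loci was called lower with the deposited factors, beside 7.08% of protein-coding genes. At that share a count of 0 among 6 genes says little, and an effect of the antisense CUTs was not tested. *atp18*, subunit J of the ATP synthase, had 2677 and 2654 normalized reads in *rrp6*Δ, against 2126 and 2168 in WT (0.31, adjusted p = 0.019), a call lost without either *rrp6*Δ library (adjusted p = 0.13 and 0.12). *cox24* had 2580 and 2547 in *rrp6*Δ, against 2094 and 2354 in WT (0.21, adjusted p = 0.11). *cox19*, a copper chaperone, had 435 and 468 in *rrp6*Δ, against 343 and 469 in WT, and its libraries overlapped. *cox20*, a chaperone of Cox2, had 1254 and 1258 in *rrp6*Δ, against 1021 and 1164 in WT, and *qcr1* had 12872 and 13778 in *rrp6*Δ, against 13079 and 11243 in WT. Of the 6 genes, *cox16* and *atp18* passed as higher, beside 46.7% of protein-coding genes. The median was 0.21, beside 0.22 for the 48 genes with no antisense CUT.

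The coding sequence was interrupted by an intron in 35 of the 54 genes (64.8%), beside 46.7% of nuclear protein-coding genes. *cox13* has 6 coding parts, and *cox12*, *atp14* and *qcr10* have 5 each. The 35 genes with an intron had a median log2 fold change of 0.26, with 17 higher, and the 19 without one a median of 0.19, with 5 higher. The 8 genes with at least 3 introns had a median of 0.19. Over all protein-coding genes, not split by introns, the median was 0.26 and 46.7% were called higher. The 35 genes with an intron were thus near that background, and a link of introns to the change was not tested.

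The genes of the same complexes in the mitochondrial genome did not move as one either. *cox1*, *cox2*, *cox3*, *atp6*, *atp8* and *atp9* were higher in *rrp6*Δ with the deposited factors, at log2 fold changes of 0.27 to 1.08, and *cob1*, the cytochrome b of complex III, was lower, at -0.84, with 199781 and 212963 normalized reads in *rrp6*Δ, against 313894 and 432106 in WT.

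Further gene lists of the pathway were counted in the same fit, beside the 46.7% of protein-coding genes higher and 7.08% lower. Enzymes that feed the respiratory chain with electrons came first. Of 4 dehydrogenases 2 rose, the glycerol-3-phosphate dehydrogenase gene *gut2* (0.32) and SPAC20G8.04c, the electron transfer flavoprotein-ubiquinone oxidoreductase (0.30), and the NADH dehydrogenase gene *nde2* fell (-0.23). Of 15 genes around the citric acid cycle 0 rose by limma and 5 fell, with a median of -0.11, while 1 was higher at an unadjusted p under 0.05, by edgeR and by DESeq2. The 2 with the smallest adjusted p were *pyr1*, pyruvate carboxylase (-0.50), and *lat1*, the acetyltransferase of pyruvate dehydrogenase (-0.43). *pyr1* had 26976 and 31144 normalized reads in *rrp6*Δ, against 43291 and 39024 in WT, with no overlap.

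Among 8 haem synthesis genes 2 rose and 3 fell, with a median of -0.20. *hem12*, uroporphyrinogen decarboxylase, had 3676 and 3842 normalized reads in *rrp6*Δ, against 5219 and 5739 in WT (-0.54), and *hem1*, which makes 5-aminolevulinate, fell by 0.36 on the log2 scale. *hem15*, the ferrochelatase that inserts the iron, rose by 0.50. Of 11 ubiquinone synthesis genes 2 rose and 2 fell, with a median of 0.18, and those with the smallest adjusted p were *ppt1*, the polyprenyltransferase (-0.62), *coq10* (0.56) and *coq9* (0.49).

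Of 23 further assembly and mitochondrial expression factors 13 rose and 1 fell, with a median of 0.33. They included *ppr5*, *ppr8* and *ppr1*, pentatricopeptide repeat proteins that act on mitochondrial RNA, at 0.54, 0.41 and 0.42. Of 54 genes of mitochondrial ribosomal proteins 21 rose and 2 fell, with a median of 0.24, and those with the smallest adjusted p were *mrpl20*, *mrps16* and *rsm10* (0.59, 0.58 and 0.54). Of 26 genes of carriers, import and folding 4 rose and 1 fell, with a median of 0.06. The smallest adjusted p were those of *tim14* (0.51), *hsp10* (0.30) and *tim54* (-0.47).

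Among 11 regulators 3 rose, with 0 lower by limma, at an unadjusted p under 0.05, or by edgeR or DESeq2 with the deposited factors. *rsv2*, a zinc finger transcription factor, had 2287 and 2437 normalized reads in *rrp6*Δ, against 1383 and 1343 in WT (0.79). The Php complex subunit *php5* (0.28) and the glucose repressor *scr1* (0.34) also passed. With TMM factors from protein-coding genes the medians were -0.35 for the citric acid cycle, -0.45 for haem synthesis, 0.08 for the assembly list and -0.01 for ribosomal proteins.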

How the data were processed

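Per the methods, the authors mapped reads with TopHat and normalized the densities on ERCC spike-in signals. The counter and the genome release were not given for these libraries in the sources used here. For the RNA-seq normalized to a budding yeast spike-in the methods name HTSeq and ASM294v2. The deposited values are signal: normalized read counts that are whole reads times 1 factor per library (100% whole within 1e-06), and recovered reads were used where a tool needs counts. The table has 21852 rows. Rows of coding parts (10204) and 28 duplicated rows were left out, which kept 11620 transcripts.

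*rrp6*Δ was compared with WT with limma 3.58.1 (trend) on log2(value + 0.728623, the smallest value above 0), after filterByExpr with a minimum count of 10 on recovered reads, with Benjamini-Hochberg adjustment over 11227 transcripts, so fold changes are on the log2(value + pseudocount) scale. The alternatives were other scalings, filters and pseudocounts, libraries left out, DESeq2 1.42.0, and edgeR 4.0.16, the count test on recovered reads, which called 8234 transcripts, against 8056 for limma. The limma p-values and SE rest on the spread between 2 libraries per strain, which limma draws toward its trend across transcripts. They are not the spread of a gene's own libraries alone. The test was checked on simulated data, where it found most of the larger changes and missed most of the smallest ones. Whether that outcome carries over to the calls reported here, whose counts turned on the scaling, was not tested. A read pair that touches several coding parts is counted in each: the summed parts exceeded the gene value for 77.8% of genes with 2 or more parts and for 0 of those with 1 part. Chromosome names and gene starts were checked against ASM294v3, where 5116 of 5119 coding sequences open with ATG.

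The name rule uses no measured value, but the members and lists were chosen with earlier results of these data known. Any of the 54 genes could be named. Values per library are given for the 12 with the smallest adjusted p, the extremes of level and change in each complex and those with an antisense CUT, and at most 3 called genes are named per list. List genes absent from the table by name were not counted, and the values of 1 list gene are not reported here.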

Additional observations from a re-analysis of the deposited data

How the results depend on the processing

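Counts and medians of the 54 genes turned on the scaling. With TMM factors over all transcripts, TMM factors from protein-coding genes, quantile normalization and the size factors of DESeq2, the median log2 fold change was -0.33, -0.036, -0.049 and -0.45, with 0, 5, 7 and 0 genes higher and 37, 12, 11 and 46 lower. Library totals gave 5 lower. Quantile normalization put 2 genes, *cox1101* and *cox1102*, over 2-fold lower. Without the trend of limma, 8 genes were higher and 0 lower, and coding parts summed gave 18 higher and 2 lower, *qcr8* and *cox12*. The cause of these shifts was not tested. The other settings tried (edgeR and DESeq2 with the deposited factors, no filter, a filter at 50 reads and pseudocounts 10 times larger or smaller) gave 21 to 23 genes higher and 1 lower. Leaving out 1 library gave 8 to 34 genes higher, 0 to 4 lower, 0 over 2-fold in either direction and medians of 0.16 to 0.31; a strain left with 1 library is assumed to vary like the other.

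Of the 12 genes with the smallest adjusted p, TMM factors over all transcripts reversed *atp14* (-0.060), *cox6* (-0.080), *qcr7* (-0.15), *atp5* (-0.18), *qcr10* (-0.12), *cox14* (-0.047) and *atp17* (-0.23). The size factors of DESeq2 reversed these, at -0.18, -0.20, -0.27, -0.30, -0.24, -0.18 and -0.35, and *cox7* (-0.061), and quantile normalization reversed *atp10* (-0.046). With quantile normalization 5 others of the 12 missed the threshold by limma, among them *cox8* (0.017, adjusted p = 0.92), and 6 kept their call. *qcr8* stayed lower throughout. Without the trend, *qcr8* (adjusted p = 0.093), *atp5* (0.054), *cox14* (0.086) and *atp17* (0.081) missed the threshold. Without *rrp6*Δ replicate 2, *qcr8* (0.073), *atp10* (0.067), *qcr10* (0.12), *cox14* (0.064) and *atp17* (0.074) missed it, and leaving out another library lost none of the 12 calls.

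With the replicate number as a block, 26 genes were higher and 1 lower, with the median unchanged at 0.21, and all 22 genes called without it were among them. Deviations of equally numbered libraries correlated at 0.011 across transcripts, so no pairing was seen transcript by transcript. A shift shared by all transcripts of a library does not enter this correlation. Whether the numbers pair the samples is thus not known. A CCAAT window of 200 bases gave 19 genes (35.2%), beside 28.7%. Depth limits *cox1101* and *cox1102* most, at 99 to 145 reads.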
